A study of Mus musculus with 9 samples.

Results

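The genes described here are the 8 enzymes and carriers of the NADH shuttles that the table of round spermatids (RS) lists by name: Got1, Got2, Slc25a11, Slc25a12, Slc25a13, Gpd1, Gpd1l and Gpd2. They were taken by gene symbol out of 55414 listed genes, with no value entering the rule, although earlier results of these data were known when they were chosen, and 7 of the 8 were among the 25128 genes tested. RS cells had been sorted by tdTomato fluorescence and forward scatter from adult Stra8-Tom males on a C57Bl/6 background, in which a Stra8-driven Cre switches on tdTomato in germ cells. The labels give the genotype as WT. All cells were cultured for 24 h in medium with lactate and pyruvate and 0.15% DMSO. The vehicle group received solvent only, without the compounds given to the other groups. The oxamate group received oxamate, an inhibitor of lactate dehydrogenase, at 24 mM. The combined treatment was the same oxamate dose together with octyl-L-2HG at 0.3 mM, an ester of L-2-hydroxyglutarate that enters cells. Each group had 3 libraries: vehicle libraries 1, 2 and 3, oxamate libraries 4, 5 and 6, and combined treatment libraries 7, 8 and 9. The study describes the incubations as made in triplicate. The sources used here do not say whether these came from separate animals or cell isolations, so the p-values measure the spread between these libraries, which may be technical.

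NADH made in the cytosol cannot cross the inner mitochondrial membrane. In the malate-aspartate shuttle, cytosolic malate dehydrogenase passes the electrons to malate, malate enters the mitochondrion in exchange for 2-oxoglutarate, and aspartate aminotransferases and an aspartate/glutamate carrier return the carbon and nitrogen. In the glycerol phosphate shuttle, a cytosolic dehydrogenase reduces dihydroxyacetone phosphate to glycerol 3-phosphate, and a dehydrogenase on the outer face of the inner membrane oxidizes it again and feeds the respiratory chain. Lactate dehydrogenase, the target of oxamate, uses the same cytosolic pool of NAD and NADH. Germ cells after meiosis are known for testis-specific forms of several enzymes of this metabolism, and use lactate as a fuel.

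The 9 libraries held 32339533 to 39888396 counted reads. Oxamate library 4 lay apart from oxamate libraries 5 and 6, the chi-square of counts per degree of freedom being 18.7 and 23.3 against them and 2.1 between libraries 5 and 6. Vehicle library 1 lay less far apart, at 11.9 and 11.3 against vehicle libraries 2 and 3, which gave 6.48 between them. Pairs of the combined treatment libraries gave 2.43 to 7.1. The 8 markers of round spermatids summed to 50353 to 51531 normalized counts with vehicle, 44015 to 46959 with oxamate and 42729 to 43180 with the combined treatment, and none was at 0. These 8 did not move together. Between the combined treatment and vehicle, Tssk6, Tnp1, Tnp2, Prm1 and Prm2, genes of the later steps of spermatid maturation, fell to fitted ratios of 0.501 to 0.679 of vehicle (called by edgeR), Acrv1 rose 1.19-fold (adjusted p = 0.0103 by edgeR), and Spaca1 and Izumo1, at 1.04 and 0.961 of vehicle, were not called. Between oxamate and vehicle, Tnp1, Tnp2, Prm1 and Prm2 fell to fitted ratios of 0.832, 0.801, 0.733 and 0.768 (adjusted p from 0.000224 to 0.0192 by edgeR), and the other 4 were not called. The 5 spermatogonium markers summed to 189 to 208 with vehicle, 234 to 248 with oxamate and 226 to 238 with the combined treatment. Most of this difference was in Gfra1, with means of 126, 161 and 154, while Zbtb16 had means of 12.5, 10.8 and 10.4 and Dmrt1 of 28.0, 27.2 and 29.2. None of the 5, Kit and Stra8 included, was called by edgeR in either treated group against vehicle. The 5 spermatocyte markers summed to 5080 to 6233 over all libraries. Markers of Sertoli cells summed to 2.3 to 7.6, of Leydig cells to 19.7 to 40.3, of myoid cells to 36.9 to 50.4 and of macrophages to 112 to 162, and 4 of the 5 Sertoli markers never exceeded 3 counts in a library. The part of these markers in the values below was not tested. In such bulk samples, fewer cells of a type and less RNA per cell cannot be told apart.

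With vehicle, the shuttle genes spanned levels from 2637 normalized counts per kb of transcript to almost none. Gpd2, the mitochondrial glycerol 3-phosphate dehydrogenase, had the highest level of the 8, at 2637 ± 85.2 per kb (SD, n = 3), above 94.7% of the 25027 tested genes with a length. Got1, the cytosolic aspartate aminotransferase, followed at 334 ± 17.0 per kb. Slc25a11, the carrier that exchanges malate for 2-oxoglutarate, stood at 240 ± 12.1 per kb. The levels of these 3 genes did not overlap between libraries.

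The other members lay more than an order of magnitude lower. The aspartate/glutamate carrier Slc25a12 (aralar) had 13.0 ± 1.39 per kb, the mitochondrial aminotransferase Got2 had 12.0 ± 2.66 per kb and the cytosolic glycerol 3-phosphate dehydrogenase Gpd1 had 10.4 ± 0.479 per kb. The libraries of Got2, from 10.5 to 15.1 per kb, overlapped both those of Slc25a12, from 11.6 to 14.4, and those of Gpd1, from 9.92 to 10.9. Per kb of transcript, Got2 thus did not differ from either beyond its spread. Per kb of coding sequence the vehicle means were 40.6 for Slc25a12, 28.3 for Gpd1 and 23.6 for Got2. Slc25a12 lay above Gpd1 in every vehicle library. Slc25a13 (citrin), the second aspartate/glutamate carrier, lay below them at 4.90 ± 0.239 per kb. Gpd1l, a relative of Gpd1, had 5 counts in all 9 libraries together and could not be placed further.

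**Figure D1:**
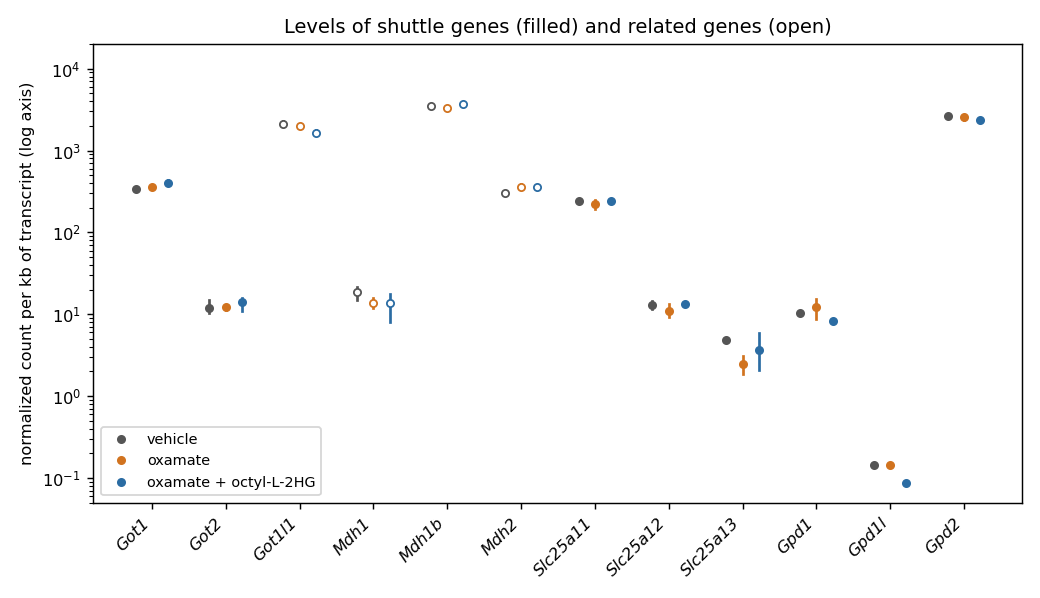
Normalized count per kb of the longest annotated transcript, on a log axis, for the shuttle genes (filled circles) and the malate dehydrogenases and Got1l1 (open circles). Circles are means of 3 libraries per group and vertical lines join the lowest and highest library (not drawn where the lowest is 0). Gpd2 stands near 2637 per kb with vehicle and Gpd1 near 10.4.

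The 2 arms of the glycerol phosphate shuttle were thus present at very unequal mRNA levels. In the vehicle libraries the level per kb of Gpd2 was 234, 260 and 272 times that of Gpd1, lowest to highest. With coding length in place of transcript length the ratios were 220 to 256. With oxamate the ratio ran from 170 to 270, and with the combined treatment from 274 to 306. The 2 aminotransferases were also unequal, with a level of Got1 per kb that was 23.4 to 31.2 times that of Got2 with vehicle. With coding length it was 19.8 to 26.4 times. Slc25a12 exceeded Slc25a13 only by 2.25 to 3.07 times per kb of transcript in the vehicle libraries, and by 4.58 to 6.24 times per kb of coding sequence.

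The enzymes that complete the malate-aspartate shuttle showed the same inequality between related genes. Mdh1, the cytosolic malate dehydrogenase, stood at 18.6 ± 3.22 per kb with vehicle, whereas Mdh1b, a malate dehydrogenase-like gene, stood at 3483 ± 64.0 per kb. In the vehicle libraries the level of Mdh1b was 165 to 226 times that of Mdh1 per kb of transcript, and 89.0 to 122 times per kb of coding sequence. Mdh1 overlaps Wdpcp, which lies on the opposite strand and had 2229 to 3054 counts per library. The paper names a stranded library kit for cultured cells. With the strand setting of the counting not stated, reads in the shared stretch could have been given to either gene or dropped. Mdh2, the mitochondrial malate dehydrogenase, stood at 299 ± 14.6 per kb, close in level to Got1 and Slc25a11. Got1l1, a relative of Got1, stood at 2092 ± 176 per kb. Its level was 6.07 to 6.49 times that of Got1 per kb of transcript, and 4.09 to 4.37 times per kb of coding sequence.

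**Figure D2:**
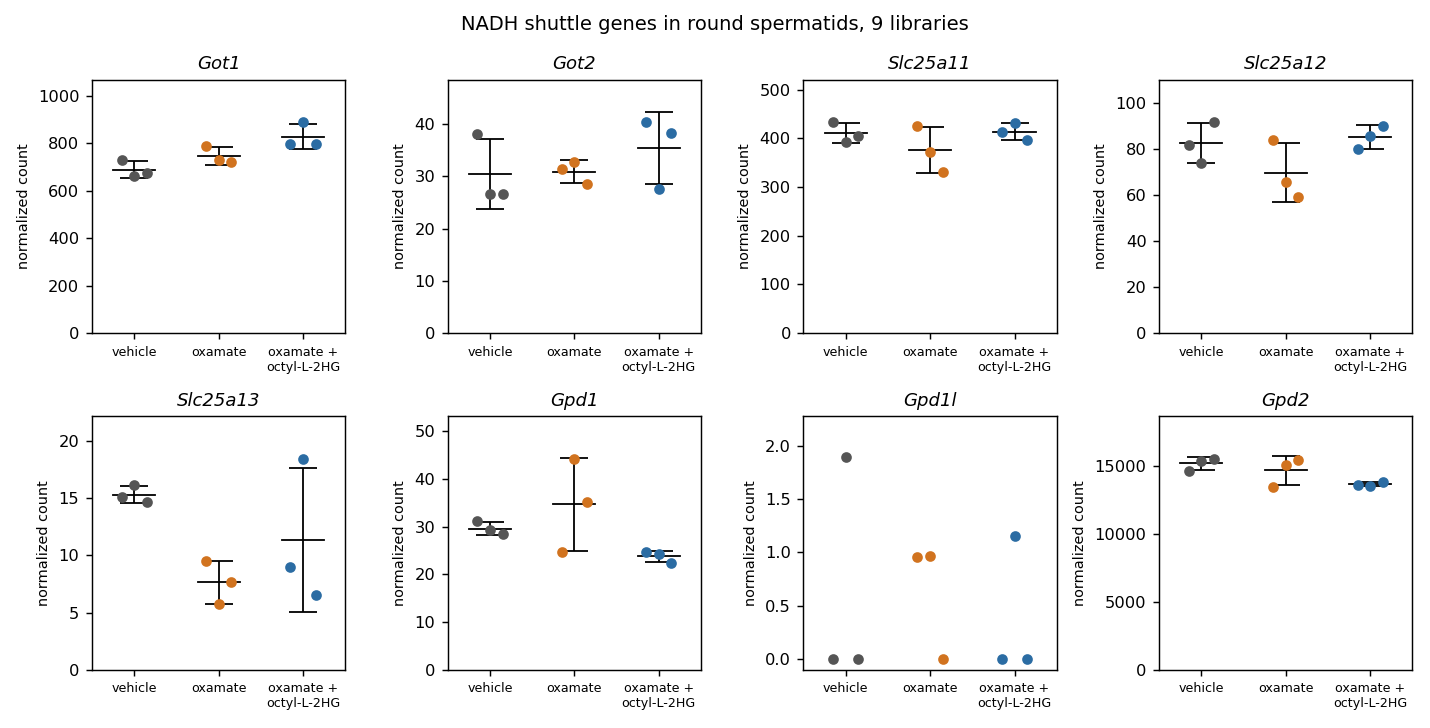
Normalized counts of the 8 shuttle genes in the 9 libraries. Each point is a library, the wide bar is the group mean and the whiskers are the SD (n = 3), which are left out for Gpd1l with its 5 counts in all. Every panel has its own scale starting at 0, just below which the Gpd1l axis begins. The Slc25a13 points with oxamate lie below all vehicle points, and the Got1 points with the combined treatment lie above all vehicle points.

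The first comparison asks how these mRNAs differed with oxamate. None of the 7 tested members passed an adjusted p-value of 0.05 between oxamate and vehicle in edgeR's quasi-likelihood test (Benjamini-Hochberg adjusted over all tested genes). Over all genes tested, 3.97% were called higher and 1.22% lower. The count of members with an unadjusted p-value under 0.05 was 1, Slc25a13, which was lower. Of all 25128 genes, 2558 were higher and 1790 lower at that edgeR threshold. DESeq2 called 0 members, with 0 at an unadjusted p-value under 0.05, beside 984 higher and 270 lower calls over all genes. The median log2 fold change of the 7 members was -0.05, beside -0.01 over all genes. Of the 7, 1 had groups that did not overlap, while 21.3% of all genes did so.

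That gene was Slc25a13. Its normalized counts were 15.1, 16.1 and 14.7 with vehicle, 9.53, 5.77 and 7.67 with oxamate, and 8.98, 18.4 and 6.55 with the combined treatment. The 3 oxamate libraries lay below the 3 vehicle libraries, and of the libraries with octyl-L-2HG library 8 lay above all others while 7 and 9 stood among the oxamate values. The fitted log2 fold change of oxamate against vehicle was -0.98 ± 0.37 (SE), with a 95% interval from -1.74 to -0.22 and an adjusted p-value of 0.146. It stayed between -1.18 and -0.80 under the 16 alternatives. DESeq2, one of them, gave no adjusted p-value for it in this comparison and an unadjusted one of 0.0516, and the others gave adjusted p-values from 0.0838 to 0.368. The gene has 104 counts over the 9 libraries, 6 to 17 in each. Tnp1, Tnp2, Prm1 and Prm2 were lower in the same oxamate libraries, as given above, and their part in this difference was not tested.

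The ratio of the 2 aspartate/glutamate carriers does not depend on the scaling between libraries. The log2 ratio of Slc25a12 to Slc25a13 counts was 2.40, 2.17 and 2.61 with vehicle and 3.08, 3.40 and 2.86 with oxamate. It was thus higher in all 3 oxamate libraries, by 0.72, with an exact two-sided permutation p-value of 0.1, which is the smallest that 3 against 3 libraries allow, and of 0.6 after adjustment over the 6 ratio tests. With octyl-L-2HG the ratio spread over 3.07, 2.17 and 3.69, and its mean differed from that with oxamate by -0.13 (exact permutation p = 0.8). The log2 ratio of Got1 to Got2 had means of 4.50 ± 0.23 with vehicle, 4.57 ± 0.10 with oxamate and 4.54 ± 0.38 with the combined treatment (SD, n = 3). Its 3 differences, up to 0.07, were within that spread, with exact permutation p-values from 0.7 to 0.9.

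**Figure D3:**
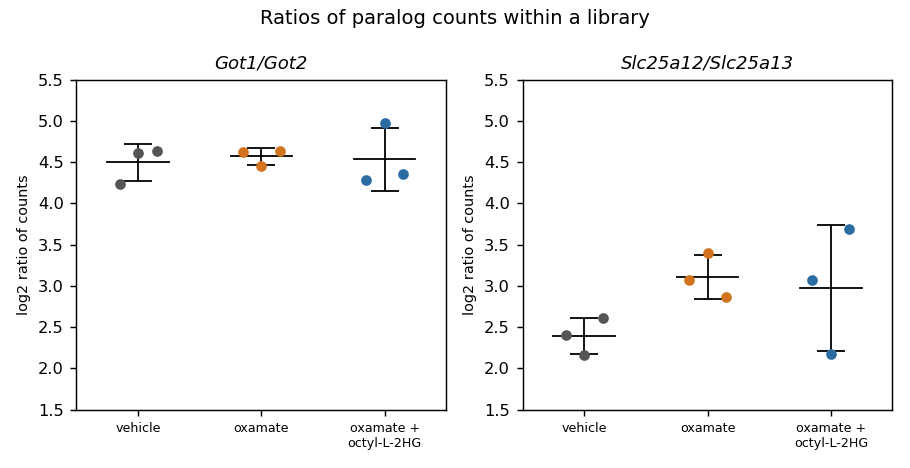
Log2 ratios of raw counts within each library (0.5 added to each count) for Got1 over Got2 and Slc25a12 over Slc25a13. Points are libraries, wide bars are means and whiskers SD (n = 3), and the axis runs from 1.5 to 5.5. The Slc25a12/Slc25a13 ratios are 2.17 to 2.61 with vehicle and 2.86 to 3.40 with oxamate.

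The remaining members had fold changes between -0.23 and 0.23 on the log2 scale for oxamate against vehicle, none of them called by edgeR or DESeq2, and between -0.40 and 0.43 without oxamate library 4, none called by edgeR. Gpd2 had 14629, 15395 and 15544 normalized counts with vehicle and 13467, 15110 and 15464 with oxamate, so that the groups overlapped. Its log2 fold change was -0.05, with a narrow 95% interval from -0.18 to 0.09, and 0.01 without library 4. Got1 differed by 0.12 (interval -0.05 to 0.29) and Slc25a11 by -0.12 (-0.32 to 0.08), or by 0.07 and -0.22 without library 4. The intervals of the scarcer genes were wider, from -0.56 to 0.09 for Slc25a12, from -0.43 to 0.48 for Got2 and from -0.22 to 0.68 for Gpd1. Their fold changes of -0.23, 0.03 and 0.23 became -0.40, 0.01 and 0.43 without library 4. Without library 5 that of Gpd1 was 0.01, and without library 6 those of Slc25a11 and Slc25a12 were -0.03 and -0.13. Got2 had 24 to 43 counts per library, and at this depth a change within its interval was not detectable.

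The second comparison asks what octyl-L-2HG added to oxamate. Again none of the 7 tested members was called by edgeR's quasi-likelihood test, Benjamini-Hochberg adjusted, where 3.18% of all genes were called higher and 8.06% lower. The count at an unadjusted p-value under 0.05 was 1, Gpd1, which was lower. Of all 25128 genes, 2135 were higher and 3799 lower at that edgeR threshold. DESeq2 called 0 members, with 0 at an unadjusted p-value under 0.05, beside 1258 higher and 1627 lower calls over all genes. The median log2 fold change was 0.12 over the 7 members and -0.04 over all genes. In 2 of the 7, Got1 and Gpd1, the groups did not overlap, beside 28.8% of all genes.

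Within the shuttle, Gpd1 makes the glycerol 3-phosphate that Gpd2 oxidizes. Its normalized counts were 31.1, 29.4 and 28.4 with vehicle, 24.8, 44.3 and 35.1 with oxamate, and 24.7, 24.2 and 22.5 with the combined treatment. The octyl-L-2HG libraries were lower than every other library, although oxamate library 4, at 24.8, was barely above library 7, at 24.7. Against oxamate the log2 fold change was -0.57 ± 0.23 (SE), with an interval from -1.05 to -0.09 and an adjusted p-value of 0.128. Without oxamate library 4 it was -0.77 with an adjusted p-value of 0.0219, without oxamate library 5 it was -0.35, and the adjusted p-values of the 16 alternatives ran from 0.0219 to 0.52. Against vehicle the difference was -0.34 (interval -0.83 to 0.15). The antisense transcript Gm16537, annotated over Gpd1, had 1 to 5 counts per library.

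Gpd2, the most abundant of the members, had its narrowest spread in the libraries with octyl-L-2HG. So did Slc25a11 and Slc25a12, while Got1 and Slc25a13 had their widest there. The normalized counts of Gpd2 in these libraries were 13614, 13536 and 13825, with an SD of 1.09% of their mean. All 3 lay below the vehicle libraries and above oxamate library 4. Against oxamate the log2 fold change was -0.13 (interval -0.26 to 0.00, adjusted p = 0.221 by edgeR), and without library 4 it was -0.18 with an adjusted p-value of 0.0177. Against vehicle it was -0.17 ± 0.06 (SE), a ratio of 0.886, with an interval from -0.31 to -0.04 and an adjusted p-value of 0.0597. Of the 16 alternatives, 4 called this last difference: without oxamate library 4 (adjusted p = 0.00781), with total counts as scaling (0.0122), with a correction for transcript length (0.00205) and in a fit of the compared groups alone (0.0357). The log2 fold change lay between -0.28 and -0.13 over all 16. DESeq2 gave an adjusted p-value of 0.0906. Against vehicle, the 5 later round spermatid markers were lower and Acrv1 was higher in these libraries, as given above, and their part in the Gpd2 difference was not tested.

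The last comparison sets the combined treatment against vehicle and shares its libraries with both others. Here 1 of the 7 tested members, Got1, was called higher and 0 lower by edgeR's quasi-likelihood test, Benjamini-Hochberg adjusted, beside 7.48% and 10.6% of all genes. At an unadjusted p-value under 0.05 there were 2, Got1, which was higher, and Gpd2, which was lower. Of all 25128 genes, 3229 were higher and 4298 lower at that edgeR threshold. DESeq2 called 1 member, with 2 at an unadjusted p-value under 0.05, beside 2161 higher and 2017 lower calls over all genes. In 3 of the 7, Got1, Gpd1 and Gpd2, the groups did not overlap, as in 36.5% of all genes. The median log2 fold change was -0.01 over the members and -0.05 over all genes.

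Got1 transfers the amino group of aspartate in the cytosol. It had 728, 662 and 673 normalized counts with vehicle, 789, 727 and 721 with oxamate, and 797, 889 and 794 with the combined treatment. The 3 libraries with octyl-L-2HG were the highest of the 9, and the oxamate libraries lay between, with 2 of them below vehicle library 1. Against vehicle Got1 rose 1.18-fold, with a log2 fold change of 0.24 ± 0.08 (SE), an interval from 0.08 to 0.41 and an adjusted p-value of 0.0384. DESeq2 gave 0.26 with an adjusted p-value of 0.0173. The call depended on the libraries: the adjusted p-value was 0.123 without vehicle library 2, 0.0924 without vehicle library 3, 0.0502 without oxamate library 5, and 0.0627, 0.205 and 0.0639 without libraries 7, 8 and 9. With total counts as the scaling it was 0.125. The log2 fold change lay between 0.18 and 0.29 under the 16 alternatives. The round spermatid markers that went opposite ways, given above, belong to these same libraries, and their part in the Got1 difference was not tested.

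**Figure D4:**
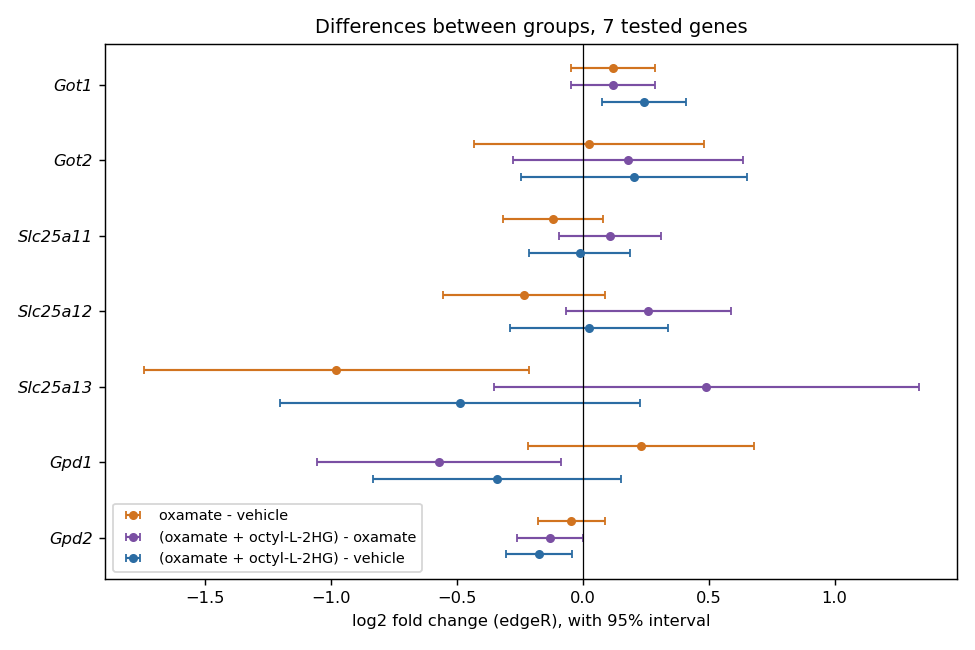
Fitted log2 fold changes of the 7 tested shuttle genes in the 3 comparisons (points) with 95% intervals from edgeR's quasi-likelihood fit (bars). The comparisons share libraries. The interval of Got1 for the combined treatment against vehicle runs from 0.08 to 0.41, and that of Slc25a13 for oxamate against vehicle from -1.74 to -0.22.

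The carriers Slc25a11 and Slc25a12 and the aminotransferase Got2 were not called in any comparison. Slc25a11 had 434, 393 and 406 normalized counts with vehicle, 426, 372 and 331 with oxamate, and 413, 432 and 396 with the combined treatment. Its oxamate libraries reached lowest, but overlapped with both other groups. It overlaps Rnf167, which lies on the opposite strand and had 2699 to 4183 counts per library, and with the strand setting of the counting not stated, reads in the shared stretch could have been given to either gene or dropped. Slc25a12 had 81.7, 73.9 and 91.6 with vehicle, 83.8, 65.4 and 59.2 with oxamate, and 79.7, 85.3 and 89.9 with the combined treatment. Against vehicle the log2 differences of the octyl-L-2HG libraries were -0.01 (interval -0.21 to 0.19) for Slc25a11 and 0.03 (-0.29 to 0.34) for Slc25a12, and both turned sign under other settings. Against oxamate they were 0.11 (-0.10 to 0.31) and 0.26 (-0.07 to 0.59). These values became 0.21 and 0.43 without oxamate library 4, and 0.02 and 0.16 without oxamate library 6, none of them called.

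Got2 had 38.2, 26.5 and 26.6 normalized counts with vehicle, 31.4, 32.7 and 28.5 with oxamate, and 40.4, 27.7 and 38.4 with the combined treatment. All 3 groups overlapped, and the difference of 0.20 against vehicle had an interval from -0.25 to 0.65. It ran from 0.11 to 0.41 with single libraries left out. Its pseudogene copy Got2-ps1 had 0 to 2 counts per library.

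Gpd1l was too scarce for a test, with raw counts of 0, 2 and 0 with vehicle, 1, 1 and 0 with oxamate, and 0, 1 and 0 with the combined treatment. It made up 5 of the 273 counts of Gpd1 and Gpd1l together, a share of 1.83% with an exact 95% binomial interval from 0.597 to 4.22%. By group the share was 2.02% with vehicle (0.246 to 7.11%), 1.89% with oxamate (0.229 to 6.65%) and 1.47% with the combined treatment (0.0372 to 7.92%). These intervals cover counting error only.

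When all 3 groups were tested together, none of the 7 members was called by edgeR's quasi-likelihood test, Benjamini-Hochberg adjusted, beside 19.8% of all genes. At an unadjusted p-value under 0.05 there were 3, namely Got1, Slc25a13 and Gpd2, with adjusted p-values of 0.0892, 0.147 and 0.116. All genes were not counted at this unadjusted threshold. DESeq2's likelihood ratio test called 1, Got1, at an adjusted p-value of 0.0455, beside 4770 of all genes. Without oxamate library 4 edgeR called 3, Got1, Gpd1 and Gpd2, with adjusted p-values of 0.0182, 0.0402 and 0.0077. That fit also called more of all genes, 7328 beside 4974 with all libraries. No member was called with any other single library left out.

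Among the malate dehydrogenases and Got1l1, 0 of 4 were called by edgeR's quasi-likelihood test between oxamate and vehicle, with 1 of the 4 at an unadjusted p-value under 0.05, while DESeq2 called 1 higher, Mdh2, at an adjusted p-value of 0.0498. Got1l1 fell with octyl-L-2HG: it had 3112, 2705 and 2692 normalized counts with vehicle, 2887, 2710 and 2529 with oxamate, and 2106, 2242 and 2383 with the combined treatment. All 3 of the latter lay below the other 6, and the log2 fold change by edgeR was -0.30 against oxamate (adjusted p = 0.0162) and -0.36 against vehicle (adjusted p = 0.00233). The former call was lost without oxamate library 5 and without library 7 or 8 (adjusted p = 0.0597, 0.112 and 0.0771). The level of Got1l1 per kb of transcript was 6.07 to 6.49 times that of Got1 with vehicle, 5.32 to 5.66 times with oxamate and 3.83 to 4.56 times with the combined treatment. Per kb of coding sequence these ratios were 4.09 to 4.37, 3.58 to 3.81 and 2.58 to 3.07. Mdh2 was higher than vehicle with the combined treatment by 0.25 on the log2 scale (adjusted p = 0.0425 by edgeR), a call lost with total counts as scaling and without any 1 of vehicle libraries 2 and 3, oxamate library 5 and libraries 7, 8 and 9 (adjusted p from 0.0555 to 0.14). Mdh1 had means of 39.5, 29.5 and 29.5 normalized counts in the 3 groups and was called by neither tool. Mdh1b had means of 5987, 5652 and 6440, and the combined treatment libraries lay above all others. It was not called by edgeR, while DESeq2 called it higher with the combined treatment than with oxamate by 0.19 on the log2 scale (adjusted p = 0.0104).

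Of the 6 related carriers, Slc25a18, a mitochondrial glutamate carrier, was called in both steps. Its normalized counts were 15.1, 13.3 and 18.3 with vehicle, 32.4, 35.6 and 36.2 with oxamate, and 15.7, 9.2 and 17.8 with the combined treatment. The oxamate libraries stood above the other 6, which overlapped each other. By edgeR it rose by 1.15 ± 0.24 (SE) on the log2 scale with oxamate (adjusted p = 0.00516) and fell by 1.28 ± 0.25 when octyl-L-2HG was added (adjusted p = 0.0021), comparisons that share the oxamate libraries. All 16 alternatives made both calls. The lower Tnp1, Tnp2, Prm1 and Prm2 counts of the oxamate libraries, given above, were lower still with the combined treatment, and their part in the Slc25a18 changes was not tested. Slc25a18 overlaps Atp6v1e1 on the opposite strand, whose means were 193, 174 and 198 normalized counts in the 3 groups. Atp6v1e1 was named after its values were seen. Slc25a10, the dicarboxylate carrier, was higher with the combined treatment than with vehicle by 0.37 (adjusted p = 0.0231 by edgeR), but not without vehicle library 2 or 3 or library 7, 8 or 9 (adjusted p from 0.074 to 0.107). The other 4 carriers were not called in any of the 3 comparisons.

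Of the 5 cytosolic enzymes that make or use NADH, Gapdhs, the glyceraldehyde 3-phosphate dehydrogenase of sperm, fell by 0.25 with octyl-L-2HG against oxamate (adjusted p = 0.0113 by edgeR) and by 0.23 against vehicle (adjusted p = 0.0128). The former call was lost without library 7 or 8 (adjusted p = 0.059 and 0.0653), and the latter without vehicle library 3 or library 7 or 8, without a filter on low counts and with the length correction (adjusted p from 0.0574 to 0.0767). Gapdh, Ldha, Ldhb and Ldhc were not called. Among 8 enzymes of glycerol and glycerol 3-phosphate, 0 were called by edgeR in the first 2 comparisons, with 1 (higher) and 0 at an unadjusted p-value under 0.05, and DESeq2 called 0 in both. Between the combined treatment and vehicle, Gpat4, an acyltransferase that uses glycerol 3-phosphate, was higher by 0.24 (adjusted p = 0.0169 by edgeR), a call lost without vehicle library 2 or library 7, 8 or 9, with total counts as scaling and with the length correction (adjusted p from 0.0565 to 0.184). Pgp, a phosphatase of glycerol 3-phosphate and phosphoglycolate, was lower by 0.36 (adjusted p = 0.0458), a call that DESeq2 did not make and that was lost without vehicle library 1 or 2, oxamate library 4, or library 7, 8 or 9, and with either other filter on low counts (adjusted p from 0.0553 to 0.239). None of the 5 glutamate and alanine enzymes was called by edgeR in any of the 3 comparisons, where 0, 1 and 1 had an unadjusted p-value under 0.05, and DESeq2 called 0.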

How the data were processed

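Raw counts of reads per gene were deposited without normalization, beside a normalized signal that equals the count divided by the library's DESeq2 size factor. The submitters' processing notes name cutadapt 2.10, TopHat2 2.1.1, HTSeq 2.01, DESeq2 1.36.0 and 2 genome builds, the mouse build GRCm39 and the nematode build WBcel235. The paper's methods name a stranded library kit for cultured cells, but the strand setting of the counting is not given in the sources used here. The labels and the methods name different sequencers. Genes with at least 10 counts over 9 libraries were tested with edgeR 4.0.16 (R 4.3.3, TMM, robust quasi-likelihood, 1 fit of all libraries, group as the only term, Benjamini-Hochberg, threshold 0.05), which was tested on simulated data. Levels per kb used the longest transcript of GENCODE M21, matched by identifier for 99.6% of tested genes. As its build differs, no coordinates are given. Ratios used a pseudocount of 0.5 and exact permutation tests. A planned Gpd1l/Gpd1 ratio was replaced by a share of counts, as Gpd1l had too few. Alternatives were DESeq2 1.42.0, other scalings, filters and samples, and a length correction. The members and lists were chosen with earlier results of these data known. Named genes are the members, the malate dehydrogenase list, and genes of the other pathway lists that passed a test. The 3 most alike genes were to be named for each member called in the test of any difference by edgeR, and edgeR called none in the fit as reported. The markers were those of 7 cell types.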

Additional observations from a re-analysis of the deposited data

How the results depend on the processing

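No paired analysis was possible because the labels number the libraries 1 to 9 and the groups share no number. Of 336 fold changes of the 7 members recomputed under the alternatives, 306 kept direction and call, 17 turned sign, 7 lost a call and 6 gained one. None of those that turned sign was called. Slc25a11 with octyl-L-2HG against vehicle was 0.0088 with DESeq2, 0.0086 with its size factors, 0.032 without a filter, 0.00064 with filterByExpr, 0.0030 in a fit of the compared groups and 0.022 with a length correction (-0.042 to 0.029 with single libraries left out), and Slc25a12 was -0.037 with total counts as scaling and -0.086 with the length correction (-0.040 to 0.119). With single libraries left out, Got2 for oxamate against vehicle ran from -0.074 to 0.227, Gpd2 from -0.079 to 0.0086, and Slc25a13 for octyl-L-2HG against oxamate from -0.023 to 0.793. The Got1/Got2 ratio ran from -0.057 to 0.146, -0.254 to 0.093 and -0.179 to 0.168 in the 3 comparisons, and Slc25a12/Slc25a13 for octyl-L-2HG against oxamate from -0.488 to 0.268.

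Members called higher with octyl-L-2HG against vehicle were 0 with total counts as scaling (0 to 1 with libraries left out), and members called lower were 1 with total counts, 1 in the fit of the compared groups and 1 with the length correction (0 to 1). Against oxamate, members called lower were 0 to 2 with libraries left out. In the test of any difference 1 member was called with DESeq2, 1 with total counts, 1 without a filter and 1 with the length correction (0 to 3). Over all genes, calls for oxamate against vehicle (997 higher, 306 lower) were 590 and 155 in the fit of the compared groups, and 538 to 1583 and 121 to 705 with libraries left out. For octyl-L-2HG against oxamate the 798 higher were 1258 with DESeq2, 421 with total counts, 1429 without a filter and 242 to 1575 with libraries left out, and the 2025 lower were 1119 to 2840. Against vehicle the 1879 higher were 1231 with total counts, 2850 in the fit of the compared groups and 1170 to 2811, and the 4974 of any difference were 3154 to 7328. The causes were not tested.

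Per kb of coding sequence the vehicle levels were 6796 for Gpd2, 555 for Got1, 436 for Slc25a11, 40.6 for Slc25a12, 28.3 for Gpd1, 23.6 for Got2, 7.54 for Slc25a13 and 0.60 for Gpd1l, which puts Gpd1 above Got2. Slc25a12, close to Got2 per kb of transcript, lay further above it on this measure. Scaling by total counts moved the median of all genes by at most 0.06 on the log2 scale. Few counts limit Slc25a13, Got2 and Gpd1.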
